A study of Mus musculus with 12 samples.

Results

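The 10 genes described here encode proteins that follicular B cells or their neighbours secrete or shed: the chemokines Ccl3, Ccl4 and Ccl22, the interleukins Il6 and Il10, the tumour necrosis factor family members Tnf, Lta and Ltb, the vascular growth factor Vegfa and the vasodilator peptide adrenomedullin (Adm). They were chosen by name, and all probe sets annotated to them were taken, 12 of the 45101 on the array. Adm and Vegfa had 2 probe sets each and the other genes 1. All 10 were among the 12190 genes tested, each through its brightest probe set. The probe set of Il6 passed the filter on dim signals only through the cko arrays at 12 h, so its tests are not independent of that group's level and it is left out of every count below, which run over the other 9 genes.

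The cells were follicular B cells (gated as B220+ and AA4.1- with CD23hi and CD21int staining) flow-sorted out of spleen, the mice being 129SvEv males 8 weeks old, labelled ZFXwt or ZFXcko for the zinc-finger factor gene Zfx, and all of them were cultured in medium and received anti-IgM at 10 µg/mL, with harvest after 0, 2 or 12 h. The 6 groups were thus wild type and cko at 0 h, at 2 h and at 12 h, with 2 arrays in each. The sources used here do not give the driver of the deletion, the number of mice pooled or the origin of the duplicate arrays. The protocol states duplicate hybridization, so every p-value reflects array-to-array spread alone, which may be technical.

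Values are the deposited linear signals, in arbitrary units, and differences are on the log2(signal + 16) scale, given ± SE from limma fitted on all 12 arrays. That scale understates the change of dim genes. A difference was called at an adjusted p under 0.05 (Benjamini-Hochberg over 12190 genes), and only called differences are described as rises, falls, higher or lower. Signals of different genes cannot be set against each other, because each probe set has its own response. In these bulk samples, fewer cells of a type and less RNA per cell cannot be told apart. The median signal of all probe sets was 29.1 to 40.3 on the 12 arrays, and signals at or under that level, for which no detection calls were used, are given as values.

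By their control probe sets the arrays fell into 2 sets of 6, and this touches several comparisons. On the 0 h arrays of both genotypes and on those of wild type at 12 h the actin 5′ signal reached 1.80 to 3.33% of the 3′ signal, and on the 2 h arrays of both genotypes and those of cko at 12 h it was 8.41 to 19.1%. Within the latter set the groups still differed. Mean actin percentages were 8.46 for wild type at 2 h, 10.7 for cko at 2 h and 19.0 for cko at 12 h. The genotype comparisons at 0 h and 2 h, the wild-type comparison of 12 h with 0 h and the cko comparison of 12 h with 2 h lie within a set. The genotype comparison at 12 h, both comparisons of 2 h with 0 h, the wild-type comparison of 12 h with 2 h and the cko comparison of 12 h with 0 h cross the sets. An alternative model had a term for these sets and 1 time effect shared by both genotypes. Its term is set by the genotype difference at 12 h beside those at 0 h and 2 h. It therefore cannot tell the sets from a genotype change at 12 h, and does not correct for the sets. The brightest of 4 Zfx probe sets gave 789.6 to 1041 on wild-type and 974 to 2618 on cko arrays. The sources used here do not place it relative to the deleted part, so it does not check the genotype. All 8 measured B cell markers (Cd79a, Cd79b, Ms4a1, Pax5, Blk, Cd22, Fcer2a and Cr2) gave signals on every array, the lowest being 86.2 for Pax5. Their summed signal was 67949 to 68539.7 in wild type at 0 h, 28564 to 29870.0 at 2 h and 31025 to 31461 at 12 h, and in cko 76448 to 77766, 27739 to 27823 and 36471 to 37289. At 2 h 0 of the 8 rose and 5 fell in wild type (23.5 and 36.2% of all genes), with a median of -1.36, and 1 rose and 6 fell in cko (23.8 and 39.2%), with a median of -2.11. On cko arrays 5 were higher and 1 lower at 0 h (16.3 and 16%), 1 and 5 at 2 h (12.8 and 15.7%), and 3 and 3 at 12 h (21.4 and 29.9%). The part of this change in the values of the 10 genes was not tested.

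As background, crosslinking of the B cell receptor activates NF-kB, NFAT and the MAP kinase pathway, and several cytokine genes are direct targets of these factors. CCL3 and CCL4 attract T cells and monocytes, and CCL22 attracts cells that carry CCR4. Lymphotoxin made from Lta and Ltb products maintains follicular dendritic cells and lymphoid tissue structure, and IL-6 and IL-10 shape B cell and T cell responses. VEGF-A and adrenomedullin act on blood vessels, and hypoxia is a known inducer of both genes.

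RefSeq promoter entries (GRCm38.p6) were found for 8 of the 10 genes, Ccl4 and Il10 not being among them. The 250 bases before the start are printed 5′ to 3′ for Ccl3 and Tnf, which rose together at 2 h, for Ltb, which fell in both genotypes, and for Il6, which was high in 1 group only. Capitals mark matches to the motifs searched on both strands, which were NF-kB (GGG, any 3 bases, then TTCC), AP-1 (TGANTCA), CRE (TGACGTCA), NFAT (GGAAAA), EGR (GCGNGGGCG), hypoxia (ACGTG) and Zfx (AGGCCT).
Ccl3 (chr11:83649379-83649628, - strand): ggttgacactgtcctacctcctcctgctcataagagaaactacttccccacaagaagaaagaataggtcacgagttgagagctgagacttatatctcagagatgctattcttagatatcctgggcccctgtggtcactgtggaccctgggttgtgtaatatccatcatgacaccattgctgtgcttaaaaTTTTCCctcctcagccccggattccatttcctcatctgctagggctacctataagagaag
Tnf (chr17:35202008-35202257, - strand): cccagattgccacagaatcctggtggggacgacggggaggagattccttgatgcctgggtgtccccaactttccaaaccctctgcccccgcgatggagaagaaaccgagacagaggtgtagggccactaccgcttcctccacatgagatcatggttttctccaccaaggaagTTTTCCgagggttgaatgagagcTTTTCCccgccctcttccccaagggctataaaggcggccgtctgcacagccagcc
Ltb (chr17:35194257-35194506, + strand): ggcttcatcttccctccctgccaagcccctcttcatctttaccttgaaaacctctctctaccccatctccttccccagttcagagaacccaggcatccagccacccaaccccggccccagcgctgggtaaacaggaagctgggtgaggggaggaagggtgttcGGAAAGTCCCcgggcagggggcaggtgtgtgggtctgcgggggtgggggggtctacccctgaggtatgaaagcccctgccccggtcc
Il6 (chr5:30012864-30013113, + strand): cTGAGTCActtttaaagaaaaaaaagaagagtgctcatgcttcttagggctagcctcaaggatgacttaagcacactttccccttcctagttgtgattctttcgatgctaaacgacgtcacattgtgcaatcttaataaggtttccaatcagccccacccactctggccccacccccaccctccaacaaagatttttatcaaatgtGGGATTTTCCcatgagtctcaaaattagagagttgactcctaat
The Il6 window held 1 NF-kB match, GGGATTTTCC, at 44 to 35 bases before the start, with an NFAT match (TTTTCC, on the opposite strand) inside it, and 1 AP-1 match (TGAGTCA) 249 to 243 bases before the start. Ltb held 1 NF-kB match on the opposite strand (GGAAAGTCCC, 87 to 78 bases before the start). The NFAT letters matched in Ccl3 (1 match) and Tnf (2 matches), and the hypoxia letters matched in 1 of the 2 Vegfa windows. That window belongs to the downstream start (chr17:46025164-46025413, - strand). The window of the upstream Vegfa start (chr17:46032378-46032627, - strand) held no match. No searched motif was found in these 250 bases of Adm, Ccl22 or Lta. Among 32851 RefSeq promoter windows of the same length, 4.65% held the NF-kB letters, 6.75% AP-1, 1.55% CRE, 20.4% NFAT, 4.70% EGR, 16.6% hypoxia and 8.70% Zfx. A match is a description of letters and not a measured binding site.

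Most of these genes moved during culture. In wild-type cells 8 of 9 were called between 0 h and 2 h, against 59.7% of all genes: 6 rose (23.5% of all genes) and 2 fell (36.2%). The median over the 9 was 1.54, against -0.24 over all genes. On the cko arrays 8 of 9 were called at 2 h (63% of all genes), 5 higher (23.8%) and 3 lower (39.2%), with a median of 2.28 against -0.32. In the cko comparison median scaling raised the upward share of calls from 37.8 to 51.1%. These comparisons share no arrays between the genotypes, but each 0 h group serves both its 2 h and 12 h comparison. The plot of differences from 0 h shows which genes held their change to 12 h.

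**Figure D1:**
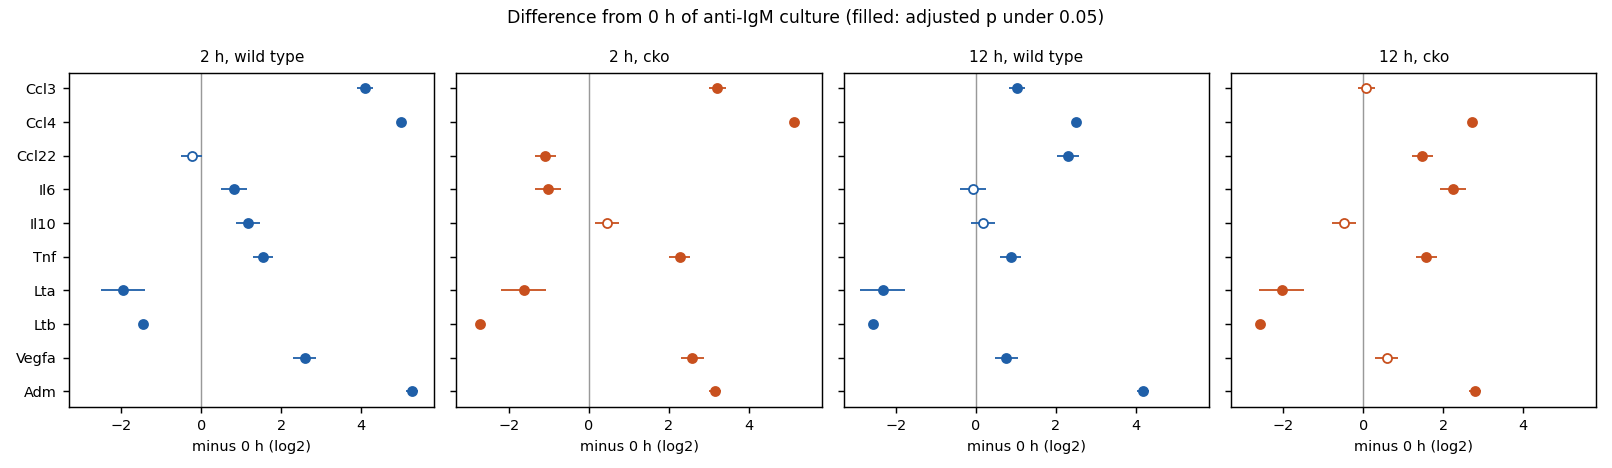
Log2 differences (x axis, log2(signal + 16) scale) from 0 h for each of the 10 genes (y axis) at 2 h and 12 h of anti-IgM culture in wild type (blue) and cko (orange). Bars are ± SE from limma with 2 arrays per group, and filled points have an adjusted p under 0.05: Ccl4 was at 4.997 and 5.13 at 2 h, and Ltb was below 0 in every panel. The Il6 points are descriptions, its probe set having passed the filter only through the cko 12 h arrays.

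At 12 h in wild type 8 of 9 genes were called against 0 h (47.9% of all genes), 6 higher (24.8%) and 2 lower (23.1%), with a median of 0.86 against 0.03 over all genes. On the cko arrays 6 of 9 were called (58.9%), 4 higher (25.9%) and 2 lower (33.1%), with a median of 0.58 against -0.20. Median scaling raised the upward share of calls in this cko comparison from 43.9 to 60.6%. From 2 h to 12 h in wild type 8 of 9 genes were called (57.3% of all genes), of which 7 fell (22%) and 1 rose (35.3%). On cko arrays 6 of 9 were called (49%), of which 5 fell (18.7%) and 1 rose (30.2%). The medians of these 2 h to 12 h differences were -1.08 against 0.26 over all genes in wild type and -0.71 against 0.10 on cko arrays. Median scaling lowered the upward share of calls from 61.6 to 50.6% in the wild-type comparison.

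Between the genotypes the counts were lower. At 0 h 4 of 9 genes were called (32.3% of all genes), all 4 higher on cko arrays (16.3%), with a median of 0.82 against 0.02. At 2 h 3 of 9 were called (28.5%), 1 higher (12.8%) and 2 lower (15.7%), with a median of -0.05 against -0.02. At 12 h 2 of 9 were called (51.3%), both higher (21.4%), with a median of 0.07 against -0.17. Median scaling moved the upward share of calls on cko arrays from 50.4 to 38.0% at 0 h and from 41.7 to 58.0% at 12 h. Under that scaling the median over all genes went from -0.17 to 0.04 between genotypes at 12 h, from -0.24 to -0.04 for 2 h in wild type and from -0.32 to -0.03 for 2 h in cko. It also went from -0.20 to 0.09 for 12 h in cko, from 0.26 to 0.06 for 12 h against 2 h in wild type and from -0.17 to 0.12 for the 12 h response difference. Without array 1 of either genotype at 12 h, 1 of the 9 was called there.

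**Figure D2:**
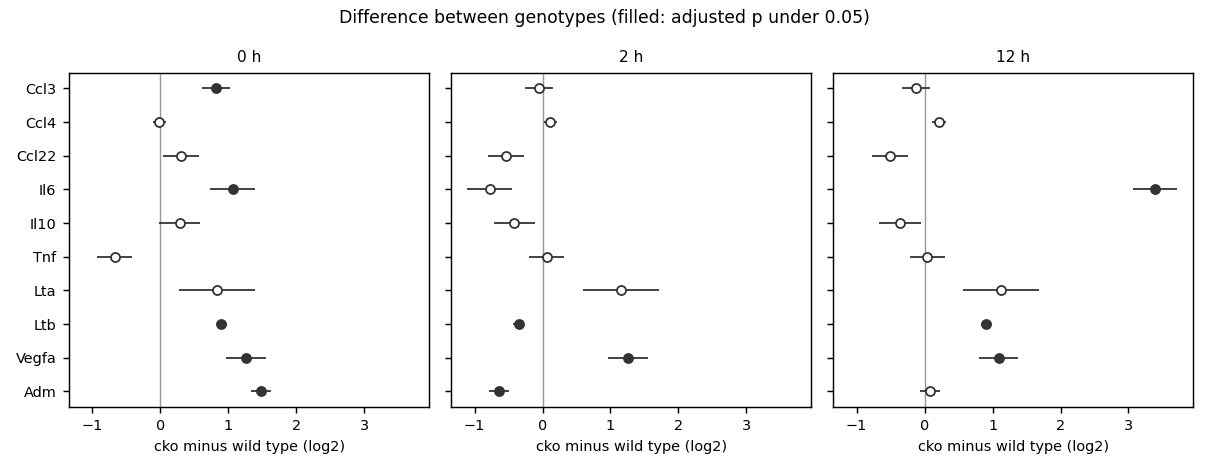
Log2 differences between cko and wild type (x axis, log2(signal + 16) scale) for each of the 10 genes (y axis) at 0, 2 and 12 h of culture. Bars are ± SE from limma with 2 arrays per group, and filled points have an adjusted p under 0.05: Vegfa was above 0 at each time, and Il6 was at 3.39 at 12 h. The Il6 probe set passed the filter only through the cko 12 h arrays, so its points are descriptions.

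Ccl3 and Ccl4, neighbouring genes for chemokines of the CC class, rose steeply by 2 h and were lower again at 12 h in both genotypes. Ccl4 gave 172 and 187 on the wild-type 0 h arrays (replicates 1 and 2, an order kept below), 5945 and 6515 at 2 h, and 1008 and 1157 at 12 h. On cko arrays Ccl4 gave 193 and 162 at 0 h, 6768 and 6727 at 2 h, and 1326 and 1182 at 12 h. No time point overlapped another within a genotype, and 2 h was the highest in both.

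The rise of Ccl4 at 2 h was 4.997 ± 0.10 in wild type (adjusted p = 1.6e-13) and 5.13 ± 0.10 in cko (adjusted p = 7.2e-14). The difference between these responses was 0.13 ± 0.14 (adjusted p = 0.57). At 12 h Ccl4 was still higher than at 0 h, by 2.49 ± 0.10 in wild type and 2.71 ± 0.10 in cko. From 2 h to 12 h it fell by 2.51 on the log2 scale in wild type and fell by 2.41 on that scale in cko, the latter comparison lying within a control-probe set. Between genotypes Ccl4 differed by -0.02 ± 0.10 at 0 h, 0.12 ± 0.10 at 2 h and 0.21 ± 0.10 at 12 h (adjusted p = 0.92, 0.44 and 0.095). The 12 h value passed the threshold under median scaling (0.43) and without wild-type 12 h array 2 (0.31), and so did the 12 h response difference (0.23 ± 0.14) under median scaling (0.52).

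Ccl3 gave 56.6 and 97.0 in wild type at 0 h, 1708 and 1362 at 2 h, and 207 and 136 at 12 h. The cko arrays gave 149 and 139 at 0 h, 1489.8 and 1450.4 at 2 h, and 154 and 152 at 12 h. The genotypes overlapped at 2 h and 12 h, and at 0 h both cko arrays lay above both wild-type arrays. Ccl3 rose by 4.09 ± 0.21 in wild type (adjusted p = 6.1e-10) and 3.21 ± 0.21 in cko (adjusted p = 5.8e-09) at 2 h. At 12 h it stood above 0 h in wild type (1.02 ± 0.21, adjusted p = 0.00088), and in cko the difference was 0.08 ± 0.21 (adjusted p = 0.77).

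At 0 h Ccl3 was higher on cko arrays by 0.82 ± 0.21 (adjusted p = 0.0079), a call lost without wild-type 0 h array 1 (0.50). The cko response was smaller by 0.87 on the log2 scale at 2 h (difference -0.87 ± 0.29, adjusted p = 0.0496) and by 0.95 at 12 h (-0.95 ± 0.29, adjusted p = 0.018). The former lost its call under 16 of 20 alternatives, among them without any 1 of the 8 arrays compared except wild-type 0 h array 2, where it was -1.04 to -0.56. The latter lost its call without wild-type 0 h array 1 (-0.63) or 12 h array 1 (-0.67), under median scaling (-0.65), without an intensity trend or with only the groups compared. Both use the same 0 h arrays as the genotype difference at 0 h, and are not separate evidence of it.

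**Figure D3:**
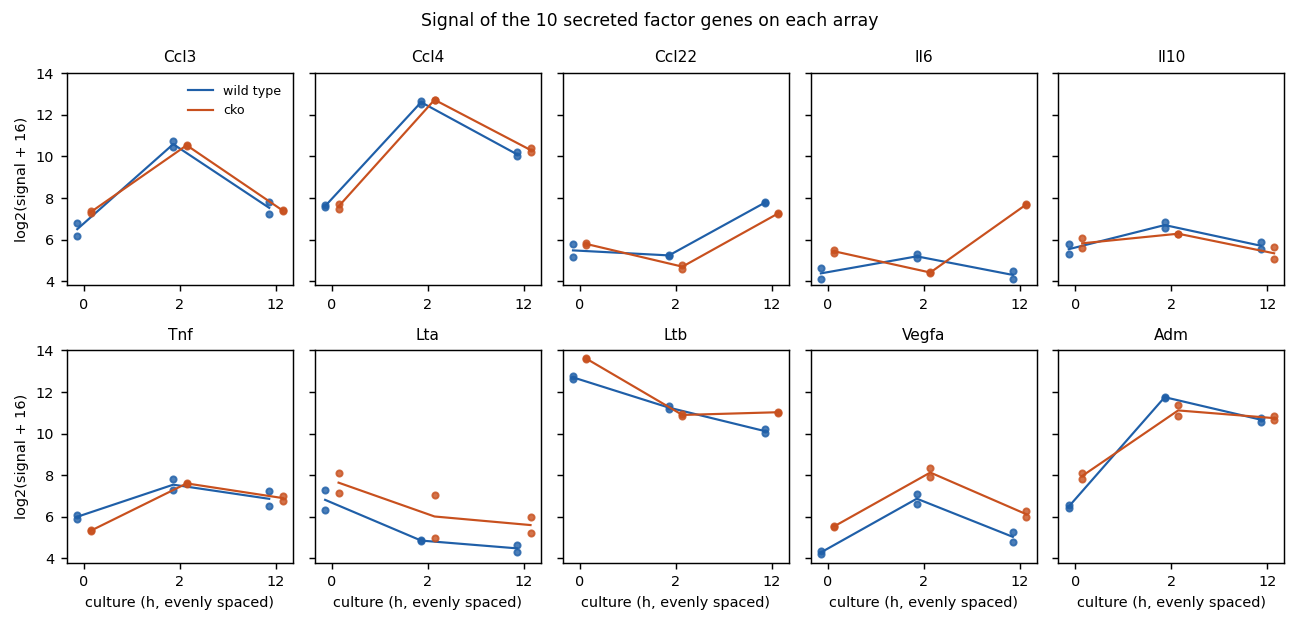
Signal of the tested probe set of each of the 10 genes on every array, as log2(signal + 16) (y axis), at 0, 2 and 12 h of culture (x axis, evenly spaced). Points are single arrays (2 per group), lines join group means, blue is wild type and orange cko: the Ccl3 and Ccl4 arrays peaked at 2 h, those of Ccl22 were highest at 12 h, and the cko 12 h arrays of Il6 (193 and 188) stood above its other 10 arrays.

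Ccl22, a chemokine made by activated B cells and dendritic cells, moved late. Its signal was 19.5 and 40.2 in wild type at 0 h, 21.6 and 22.0 at 2 h, and 200.1 and 208 at 12 h. On cko arrays it was 38.1 and 40.5, then 8.38 and 11.7, then 135 and 141. The 12 h arrays lay above all earlier arrays in both genotypes. Ccl22 rose from 0 h to 12 h by 2.30 ± 0.26 in wild type (adjusted p = 5.4e-06), a comparison within a control-probe set, and 1.48 ± 0.26 in cko (adjusted p = 0.00024). In cko it fell at 2 h (-1.09 ± 0.26, adjusted p = 0.0023), between dim signals, and the wild-type value was -0.24 ± 0.26. With a term for the control-probe sets the 2 h value, shared by both genotypes, was -0.27 and not called.

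Every wild-type array of Ccl22 at 12 h was above both cko arrays, but the genotype difference of -0.51 ± 0.26 was not called (adjusted p = 0.12). It was called with a pseudocount of 64 (-0.41), without an intensity trend and with only these groups in the fit. The 12 h response differed by -0.82 ± 0.37 (adjusted p = 0.092) and was called without wild-type 0 h array 2 (-1.15), with a pseudocount of 64 (-0.56) and without an intensity trend. The 2 h response differed by -0.85 ± 0.37 and was called without the same array (-1.18).

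Il6 stood apart in 1 group. It gave 8.86 and 1.33 in wild type at 0 h, 18.3 and 23.1 at 2 h, and 6.40 and 1.35 at 12 h. On cko arrays it gave 29.9 and 24.9 at 0 h, 5.98 and 4.76 at 2 h, and 193 and 188 at 12 h. All 10 arrays outside the cko 12 h group were thus at 29.9 or under, in the range of the array medians or below it, and the order of those 10 carries little weight. The cko and wild-type 12 h groups differed by 3.39 ± 0.33, a comparison across the control-probe sets. Within the set that holds both cko 2 h and cko 12 h, Il6 differed by 3.27 ± 0.33. Those 2 groups were still apart in their mean actin percentages, at 10.7 and 19.0. The Il6 probe set passed the filter only through the cko 12 h arrays, so its fitted values are descriptions and not independent tests.

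The 12 h response of Il6, which rests on the same cko 12 h arrays, differed between genotypes by 2.33 ± 0.46. It kept its direction with a pseudocount of 1 (2.96), where it was not called. The genotype difference of Il6 at 0 h (1.06 ± 0.33, adjusted p = 0.023), its 2 h changes in wild type (0.82 ± 0.33, adjusted p = 0.044) and cko (-1.02 ± 0.33, adjusted p = 0.014), and the difference between those changes (-1.84 ± 0.46, adjusted p = 0.012) lie among dim signals. The 0 h call was lost without replicate 2 of wild type (0.80) or either cko array (0.98 and 1.14). The wild-type 2 h call was lost without replicate 2 at 0 h (0.56) or either 2 h array (0.91 and 0.72), and the cko call without replicate 1 at 0 h (-0.94) or replicate 2 at 2 h (-0.98). The wild-type value between 2 h and 12 h was -0.89 ± 0.33, and it lost its call without either 2 h array (-0.99 and -0.80) or replicate 2 at 12 h (-0.71).

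Levels of marker genes of other cells are given beside Il6 and the chemokines, since macrophages and dendritic cells also make them. The summed signal of 14 monocyte, macrophage and neutrophil markers was 3306 and 3313 on the cko 12 h arrays, the lowest of the 6 groups. It ran from 20102 to 20756 in wild type and 9941 to 9963 in cko at 0 h, from 13464 to 13507 and 4343 to 4528 at 2 h, and from 7234 to 8186 in wild type at 12 h. The neutrophil genes S100a8 and S100a9 weigh heavily in these sums, with means of 11983 and 4034 in wild type at 0 h. They were 940 and 392 in cko at 12 h. Single markers did not all follow the sum. Mean signals at 12 h in cko and wild type were 175 and 121 for Adgre1, 106 and 61.8 for Cd68. They were 96.9 and 60.1 for Cd14, but 132 and 347 for Csf1r and 334 and 572 for Lyz2. The lowest signals were those of Itgam (0.715 to 18.3), below the median of every array, and 5 of the 14 markers were under 100 on every array. Of the 13 tested markers, 3 were higher and 5 lower on cko arrays at 12 h (21.4 and 29.9% of all genes), with S100a8 at -2.28 ± 0.09. At 2 h in wild type 2 rose and 7 fell (23.5 and 36.2% of all genes), Cd14 (2.52 ± 0.28, from 72.3 to 484) being among the rises and Csf1r (-2.36 ± 0.11) among the falls. The 5 dendritic cell markers summed to 175 to 183 on the cko 12 h arrays and 175 to 239 on the wild-type 12 h arrays, to 397 to 415 in wild type and 368 to 375 in cko at 2 h, and to 179.8 to 183 and 245 to 254 at 0 h. The T and NK cell markers (12 measured) summed to 3389 to 3417 in wild type at 0 h, 1258 to 1263 at 2 h and 689 to 707 at 12 h, and in cko to 2999.7 to 3392, 1307 to 1365 and 929 to 971. The 5 plasma cell markers summed to 8266 to 8435, 9798 to 10366 and 4823 to 5143 in wild type, and to 8634 to 9076, 8581 to 8921 and 8096 to 8451 in cko. The part of such cells in the chemokine and interleukin values was not tested.

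Il10, an interleukin that restrains inflammation, gave low signals, at most 99.6. All those at 2 h were above the medians of their arrays, and at 0 h and 12 h the duplicates of each group lay on either side of them. Wild-type signals were 38.8 and 23.4 at 0 h, 77.4 and 99.6 at 2 h, and 42.4 and 30.7 at 12 h. The cko arrays gave 32.1 and 50.5, then 61.9 and 61.9, then 17.4 and 33.2. Il10 rose at 2 h in wild type (1.16 ± 0.30, adjusted p = 0.0044), and the cko value was 0.46 ± 0.30 (adjusted p = 0.20), which was called under quantile normalization (0.73) and median scaling (0.75). The difference between these responses was -0.70 ± 0.43 (adjusted p = 0.29). With a term for the control-probe sets the 2 h value, shared by both genotypes, was 1.11 and not called. From 2 h to 12 h Il10 fell by 0.99 on the log2 scale in wild type (adjusted p = 0.012) and fell by 0.94 on that scale in cko (adjusted p = 0.019). The wild-type call was lost without replicate 2 at 2 h (-0.84) or 12 h (-0.83), and the cko call without either 2 h array (-0.94 each) or replicate 1 at 12 h (-0.66). No genotype difference of Il10 was called at 0 h (0.28 ± 0.30), 2 h (-0.42 ± 0.30) or 12 h (-0.36 ± 0.30).

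Tnf, Lta and Ltb belong to 1 gene cluster in the major histocompatibility complex, yet Tnf went up in culture while Lta and Ltb went down. Tnf, whose product triggers inflammation through TNFR1 and TNFR2, gave 52.3 and 44.0 in wild type at 0 h, 139.8 and 208 at 2 h, and 74.4 and 134 at 12 h. On cko arrays it gave 24.9 and 23.4, then 180.0 and 178, then 114 and 93.9. Both later times lay above 0 h in both genotypes, and both cko arrays lay below both wild-type arrays at 0 h.

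Tnf rose at 2 h by 1.54 ± 0.26 in wild type (adjusted p = 0.00013) and 2.28 ± 0.26 in cko (adjusted p = 2.6e-06), and the responses differed by 0.73 ± 0.37 (adjusted p = 0.19). At 12 h it was above 0 h by 0.86 ± 0.26 in wild type (adjusted p = 0.013) and 1.57 ± 0.26 in cko (adjusted p = 0.00012). The wild-type 12 h call was lost without replicate 2 at 0 h (0.77) or at 12 h (0.50). The 12 h responses differed by 0.71 ± 0.37 (adjusted p = 0.14), which was called under median scaling and without wild-type 12 h array 2 (1.07). The genotype difference at 0 h was -0.67 ± 0.26 (adjusted p = 0.063), and it was called under quantile normalization (-0.73), median scaling (-0.75) and a pseudocount of 1 (-0.96). At 2 h and 12 h the genotypes differed by 0.06 ± 0.26 and 0.04 ± 0.26. Between 2 h and 12 h Tnf fell by 0.68 on the log2 scale in wild type and fell by 0.71 on that scale in cko (adjusted p = 0.037 and 0.036), calls lost without replicate 2 at 2 h (-0.42) or replicate 1 at 12 h (-0.32) of wild type, and in cko without any 1 of its 4 arrays at these times (-0.83 to -0.59).

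Ltb, which encodes the membrane-anchored chain of lymphotoxin, had the smallest adjusted p between genotypes among the 10 genes at each time. Its signal was 6369 and 6969 in wild type at 0 h, 2526 and 2314 at 2 h, and 1182 and 1017 at 12 h. On cko arrays it was 12611 and 12219.7 at 0 h, 1848 and 1933 at 2 h, and 2104 and 2042 at 12 h. The genotypes did not overlap at any time, and cko arrays were the higher at 0 h and 12 h and the lower at 2 h. Ltb was higher on cko arrays at 0 h by 0.90 ± 0.08 (adjusted p = 2.2e-06), lower at 2 h (-0.35 ± 0.08, adjusted p = 0.0035) and higher at 12 h by 0.91 ± 0.08 (adjusted p = 2.4e-07). The comparisons at 0 h and 2 h lie within a control-probe set and that at 12 h crosses the sets.

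In wild type Ltb fell in 2 steps, by 1.46 on the log2 scale to 2 h (adjusted p = 8.8e-10) and again to 12 h (-1.13 ± 0.08, adjusted p = 1.6e-08). In cko it fell by 2.70 on the log2 scale to 2 h (adjusted p = 1.6e-12), and from 2 h to 12 h the value was 0.13 ± 0.08 (adjusted p = 0.18). The 2 h response of Ltb thus differed between genotypes by -1.25 ± 0.11 (adjusted p = 5.5e-06), and the 12 h response by 0.01 ± 0.11 (adjusted p = 0.93). With a term for the control-probe sets, which gives both genotypes 1 time effect, the 2 h to 12 h value was -0.18 and not called. From 0 h to 12 h the fall was -2.59 ± 0.08 in wild type, within a control-probe set, and -2.57 ± 0.08 in cko.

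Lta, which encodes the soluble lymphotoxin chain, was the most variable between duplicates. It gave 141 and 64.8 in wild type at 0 h, 13.3 and 12.6 at 2 h, and 4.12 and 8.81 at 12 h. The cko arrays gave 263 and 127, then 15.3 and 118, then 21.6 and 46.7. All wild-type arrays at 2 h and 12 h were below the array medians. Lta fell in wild type at 2 h (-1.96 ± 0.56, adjusted p = 0.0078) and 12 h (-2.33 ± 0.56, adjusted p = 0.0033), and in cko at 2 h (-1.63 ± 0.56, adjusted p = 0.021) and 12 h (-2.04 ± 0.56, adjusted p = 0.0063).

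The wild-type 2 h call of Lta was lost without replicate 1 at 0 h (-1.48). The cko calls were lost without replicate 1 at 0 h (-1.15 at 2 h and -1.56 at 12 h), without replicate 1 at 2 h (-0.58) and without replicate 1 at 12 h (-1.67). Genotype differences of Lta were 0.83, 1.16 and 1.12 ± 0.56 at 0, 2 and 12 h (adjusted p = 0.30, 0.15 and 0.11), and none was called. The 2 h value was called without cko 2 h array 1 (2.21), and that at 12 h with a pseudocount of 1 (2.21) and with only these groups in the fit. From 2 h to 12 h in cko the value of -0.41 ± 0.56 was called without replicate 1 at 2 h (-1.46).

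Vegfa, the main growth factor of blood vessels, was higher on cko arrays at all 3 times on its brighter probe set. That probe set gave 2.45 and 4.58 in wild type at 0 h, 82.8 and 123 at 2 h, and 11.5 and 23.1 at 12 h. On cko arrays it gave 31.8 and 29.5, then 307 and 227, then 61.7 and 46.6. The cko arrays lay above the wild-type arrays at each time without overlap, and 2 h was the peak in both. The 0 h signals of both genotypes and the wild-type 12 h signals were below the medians of their arrays. Vegfa differed between genotypes by 1.26 ± 0.29 at 0 h, 1.26 ± 0.29 at 2 h and 1.09 ± 0.29 at 12 h (adjusted p = 0.0044, 0.0050 and 0.0057).

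On the log2 scale used, the rise of Vegfa at 2 h was 2.59 ± 0.29 in both genotypes. The response difference of -0.00090 ± 0.41 was not called. These equal values depend on that scale, which understates the change of dim signals. The 0 h means were 3.52 in wild type and 30.7 in cko, and the mean signals rose 29.2-fold and 8.70-fold. Under 19 alternatives the response difference was -1.47 to 0.50 and was never called. At 12 h the difference from 0 h was 0.75 ± 0.29 in wild type (adjusted p = 0.045) and 0.58 ± 0.29 in cko (adjusted p = 0.10). The former lost its call without either 0 h array (0.67 and 0.83) or replicate 2 at 12 h (0.50), with the mean of both probe sets (0.06), a pseudocount of 64 (0.26) or quantile normalization (0.67), and the latter was called under quantile normalization (0.81) and median scaling (0.87). The genotype call at 0 h was lost with only these groups in the fit. The later genotype calls were lost without replicate 1 of wild type (1.01) or cko (1.05) at 2 h and of wild type (0.84) or cko (0.93) at 12 h. The mean of both probe sets was not called at any of the 3 times (0.80, 0.48 and 0.65). The dimmer Vegfa probe set gave 2.96 to 67.1 over the 12 arrays, its duplicates were up to 61.8 against 2.96 in wild type at 0 h, and none of its 11 contrasts was called.

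**Figure D4:**
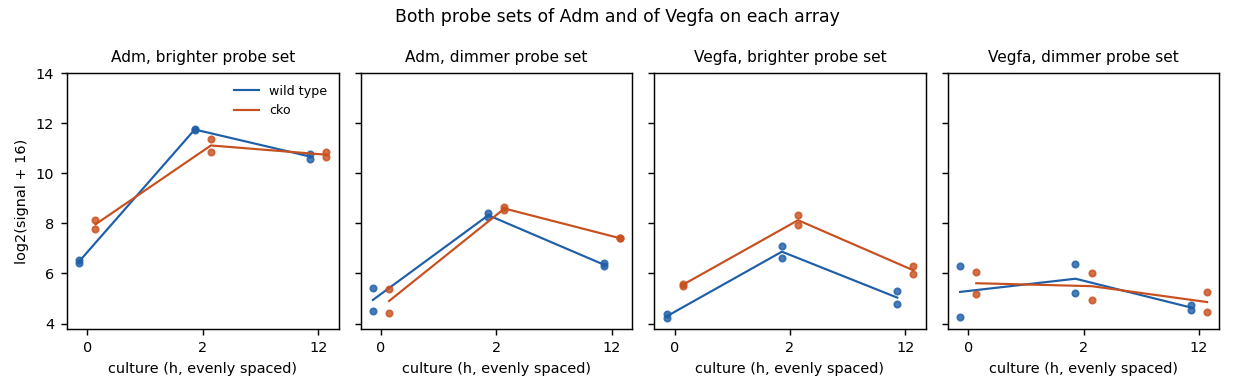
Signals of both probe sets of Adm and both of Vegfa on every array, as log2(signal + 16) (y axis), at 0, 2 and 12 h of culture (x axis, evenly spaced). Points are single arrays, lines join group means, blue is wild type and orange cko: both Adm probe sets peaked at 2 h, but the genotypes were apart at 0 h on the brighter one (73.9 and 235) and at 12 h on the dimmer one (65.9 and 154).

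Adm, which encodes the precursor of adrenomedullin, rose steeply by 2 h on both of its probe sets, but the probe sets did not give the same difference between genotypes. The brighter one, of the kind that Affymetrix marks as able to cross-hybridize, gave 77.5 and 70.2 in wild type at 0 h, 3386 and 3482 at 2 h, and 1514 and 1719.8 at 12 h. Its cko signals were 206 and 264, then 2616 and 1851, then 1817 and 1589.7. The dimmer one gave 26.2 and 6.41, then 321 and 290.0, then 69.9 and 61.9 in wild type, and 5.13 and 26.1, then 392 and 351, then 155 and 153 in cko. On both, 2 h was the highest and 0 h the lowest in either genotype.

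The rise of Adm at 2 h was 5.26 ± 0.15 in wild type and 3.15 ± 0.15 in cko on the brighter probe set, and 3.38 ± 0.32 and 3.70 ± 0.32 on the dimmer one. All 4 of these differences were called. The response difference at 2 h was -2.11 ± 0.21 on the brighter probe set (adjusted p = 1.6e-05) and 0.31 ± 0.45 on the dimmer one (adjusted p = 0.70 over every probe set). At 12 h Adm was above 0 h by 4.18 ± 0.15 in wild type and 2.78 ± 0.15 in cko on the brighter probe set, and by 1.41 ± 0.32 and 2.51 ± 0.32 on the dimmer one. The 12 h response difference was -1.40 ± 0.21 on the former (adjusted p = 9.2e-05) and 1.10 ± 0.45 on the latter (adjusted p = 0.069 over every probe set).

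Between genotypes the brighter Adm probe set was higher on cko arrays at 0 h (1.47 ± 0.15, adjusted p = 7.9e-06), lower at 2 h (-0.64 ± 0.15, adjusted p = 0.0053) and at 0.07 ± 0.15 at 12 h. The dimmer probe set gave -0.04 ± 0.32 at 0 h, 0.27 ± 0.32 at 2 h and a higher cko signal at 12 h (1.06 ± 0.32, adjusted p = 0.014 over every probe set). The 2 h call was lost without cko 2 h array 2 (-0.39), and the mean of both probe sets was called at 0 h (0.72) and 12 h (0.56), but not at 2 h (-0.18) or for either response difference (-0.90 at 2 h and -0.15 at 12 h). Between 2 h and 12 h Adm fell in wild type on the brighter probe set (-1.08 ± 0.15, adjusted p = 2.1e-05). In cko the value was -0.37 ± 0.15 (adjusted p = 0.052), called without replicate 2 at 2 h (-0.62), with the mean of both probe sets (-0.78), with a pseudocount of 64 and with the stricter filter. With a term for the control-probe sets the 2 h to 12 h value, shared by both genotypes, was -0.90 and not called.

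The difference between the genotypes' responses was called for 3 of 9 genes at 2 h (20.4% of all genes), Adm, Ccl3 and Ltb, with all 3 smaller or more negative on cko arrays (11.8% of all genes) and 0 larger (8.59%). At 12 h it was called for 2 of 9 (43.2%), Adm and Ccl3, both lower (24.4%) and 0 higher (18.8%), and 1 of 9 without wild-type array 1 of 0 h or of 12 h. Median scaling moved the upward share of calls from 42.0 to 56.4% at 2 h and from 43.5 to 64.9% at 12 h. All of these differences reuse the 0 h arrays, on which Adm (brighter probe set), Ccl3 and Ltb were higher in cko. The dimmer Adm probe set gave -0.04 at 0 h and response differences of 0.31 at 2 h and 1.10 at 12 h, none called.

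Other tested genes followed the members closely across the 12 arrays, which share the same 6 groups, so these correlations describe the groups rather than independent samples. The most like to Ccl4 were the kinase gene Pim1 (Pearson r = 0.994), the lactate transporter gene Slc16a1 (0.994) and Naa25 (0.993). Those most like to Ccl3 were the amino acid transporter gene Slc7a1 (0.993), Pafah1b1 (0.988) and Rad18 (0.987). For Ccl22 they were the sterol synthesis gene Fdft1 (0.982), Acadvl (0.982) and Elof1 (0.979), and for Ltb the class II regulator gene H2-Oa (0.985), Lcp1 (0.983) and Gpr18 (0.977). Adm was followed by Bclaf3 (0.989), Tor1aip2 (0.987) and the phosphatase gene Dusp4 (0.985), and Vegfa by Samsn1 (0.976), Slc3a2 (0.969) and Dimt1 (0.967). Tnf had Mfsd5 (0.975), Dis3 (0.970) and P4hb (0.969), Il6 had Alg10b (0.949), Tstd3 (0.935) and Nat2 (0.935), Lta had Lysmd1 (0.905), Gm20559 (0.896) and Stk38 (0.887), and Il10 had Icam1 (0.898), Scaf4 (0.897) and Sik3 (0.895).

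Of 19 receptor genes listed for these factors, 15 were tested, and 2 rose and 6 fell in wild type at 2 h (23.5 and 36.2% of all genes), with a median of -0.29 against -0.24 over all genes. Tnfrsf1b, which encodes the TNF receptor TNFR2, rose at 2 h in wild type (1.89 ± 0.12, from 159 to 635) and in cko (2.42 ± 0.12, from 105 to 628). Il10ra, the ligand-binding chain of the IL-10 receptor, fell at 2 h in wild type (-1.99 ± 0.18, from 474 to 108) and in cko (-1.36 ± 0.18, from 242 to 83.8). At 12 h in wild type 1 rose and 6 fell (24.8 and 23.1% of all genes), with Il10rb, the other chain of that receptor, among the falls (-1.22 ± 0.11, from 683 to 286).

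Between genotypes 0 receptor genes were higher and 4 lower on cko arrays at 0 h (16.3 and 16% of all genes), 1 was higher and 3 lower at 2 h (12.8 and 15.7%), and 3 were higher and 3 lower at 12 h (21.4 and 29.9%). At an adjusted p under 0.05, Il6st, which encodes the signalling chain of the IL-6 receptor, was lower at all 3 times (-1.14, -1.10 and -0.85 ± 0.17). Its mean signals were 198, 164 and 201 in wild type and 81.9, 68.2 and 104 in cko at 0, 2 and 12 h. Il10rb was lower on cko arrays at 0 h (-0.62 ± 0.11) and higher at 12 h (1.35 ± 0.11, 750.1 against 286).

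Genes that process these proteins or bind their messages split in both directions. Of 14 tested, 3 rose and 5 fell in wild type at 2 h, beside 23.5 and 36.2% of all genes, and 4 rose and 7 fell at 12 h, beside 24.8 and 23.1% (medians -0.02 and -0.16, against -0.24 and 0.03 over all genes). Zfp36l2, which encodes an RNA-binding protein of the family that destabilises AU-rich messages, fell at 2 h (-1.44 ± 0.10) and 12 h (-2.42 ± 0.10, from 2103 to 379.6). Zfp36, the founding member, was 2388 at 0 h and 509 at 12 h in wild type (-2.22 ± 0.13), and 2918 and 505 in cko (-2.50 ± 0.13). Adam17, the protease that sheds TNF from the cell surface, rose in wild type at 2 h (0.68 ± 0.08, from 679 to 1097) and was higher on cko arrays at 0 h (0.46 ± 0.08) and 2 h (0.26 ± 0.08). Rc3h1, which encodes the message regulator roquin-1, was lower on cko arrays at 0, 2 and 12 h (-0.42, -0.53 and -0.86 ± 0.07). In all, 3 of the 14 were higher and 4 lower on cko arrays at 0 h (16.3 and 16% of all genes), 2 and 4 at 2 h (12.8 and 15.7%), and 3 and 6 at 12 h (21.4 and 29.9%).

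Other secreted factor genes moved in both directions. Of 49 listed, 30 were tested, and 5 rose and 9 fell in wild type at 2 h, beside 23.5 and 36.2% of all genes (median -0.24, as over all genes). Il16, a chemoattractant for CD4+ cells, fell at 2 h in wild type (-2.96 ± 0.08, from 4487 to 561.5) and in cko (-3.00 ± 0.08, from 3927 to 479). Mif, a broadly expressed inflammatory factor, rose at 2 h (0.64 ± 0.07) and 12 h (1.71 ± 0.07) in wild type. Ifng, the gene of interferon gamma, was 161 at 0 h, 64.8 at 2 h and 404 at 12 h in wild type, and 129, 77.1 and 528 in cko. At 12 h in wild type 5 of the 30 rose and 10 fell (24.8 and 23.1% of all genes).

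Between genotypes 3 of these 30 were higher and 2 lower on cko arrays at 0 h (16.3 and 16% of all genes), 2 and 4 at 2 h (12.8 and 15.7%), and 4 and 5 at 12 h (21.4 and 29.9%). Cxcl2, a neutrophil chemoattractant, was lower on cko arrays at each time (-1.47, -1.48 and -1.73 ± 0.16), with means of 886, 1333 and 143 in wild type and 316, 469 and 31.7 in cko. The neutrophil gene S100a8 was lower on the same arrays (-1.38 ± 0.09 at 0 h, -2.77 ± 0.09 at 2 h and -2.28 ± 0.09 at 12 h), and the part of neutrophils in the Cxcl2 values was not tested. Ccl5, another chemokine of the CC class, was higher on cko arrays at 12 h (1.81 ± 0.15, 530.5 against 140.0), and its 12 h response differed between genotypes by 1.43 ± 0.22. Il12a was higher on cko arrays at 0 h (1.22 ± 0.24, 294 against 116). Grn, the progranulin gene, was higher at 0 h (0.48 ± 0.05) and lower at 12 h (-0.98 ± 0.05) on cko arrays.

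NF-kB response genes, 18 of 19 tested, also moved in both directions. In wild type 10 rose and 5 fell at 2 h, beside 23.5 and 36.2% of all genes (median 0.53 against -0.24). From 2 h to 12 h 5 rose and 11 fell, beside 35.3 and 22% (median -0.74 against 0.26). Rel, an NF-kB subunit gene, rose at 2 h by 2.45 ± 0.08 in wild type and 2.46 ± 0.08 in cko. Tnfaip3, which encodes the inhibitor A20, rose in wild type from 1323 to 6261 (2.23 ± 0.08), and its response was smaller in cko (difference -0.99 ± 0.11). On cko arrays 10 of the 18 were higher and 2 lower at 0 h (16.3 and 16% of all genes), 2 were higher and 8 lower at 2 h (12.8 and 15.7%), and 2 were higher and 10 lower at 12 h (21.4 and 29.9%). Nfkbie, an inhibitor gene of the pathway, moved from 0.78 ± 0.05 at 0 h to -1.41 ± 0.05 at 12 h between genotypes.

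The list of hypoxia-inducible genes, drawn up because hypoxia is a known inducer of Vegfa and Adm, held genes called in both directions. It also includes the pathway genes Hif1a, Epas1, Arnt and Vhl. The part of hypoxia in the Vegfa and Adm values was not tested. Of 22 tested, 9 rose and 8 fell in wild type at 2 h, beside 23.5 and 36.2% of all genes, and 8 rose and 9 fell at 12 h, beside 24.8 and 23.1% (medians 0.03 and -0.30, against -0.24 and 0.03 over all genes). Ddit4, an inhibitor gene of mTORC1, rose in wild type at 2 h (1.23 ± 0.08) and 12 h (2.16 ± 0.08, from 437 to 2008). Pdk1, which encodes a kinase that restrains pyruvate oxidation, fell at 2 h in wild type (-2.12 ± 0.12) and cko (-2.70 ± 0.12). Between genotypes 6 were higher and 7 lower on cko arrays at 0 h (16.3 and 16% of all genes), 5 and 7 at 2 h (12.8 and 15.7%), and 5 and 11 at 12 h (21.4 and 29.9%). Ndrg1 was higher on cko arrays at 0 h (1.25 ± 0.15) and 12 h (1.54 ± 0.15), and Ldha, the lactate dehydrogenase gene, was lower at 12 h (-1.31 ± 0.06).

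**Figure D5:**
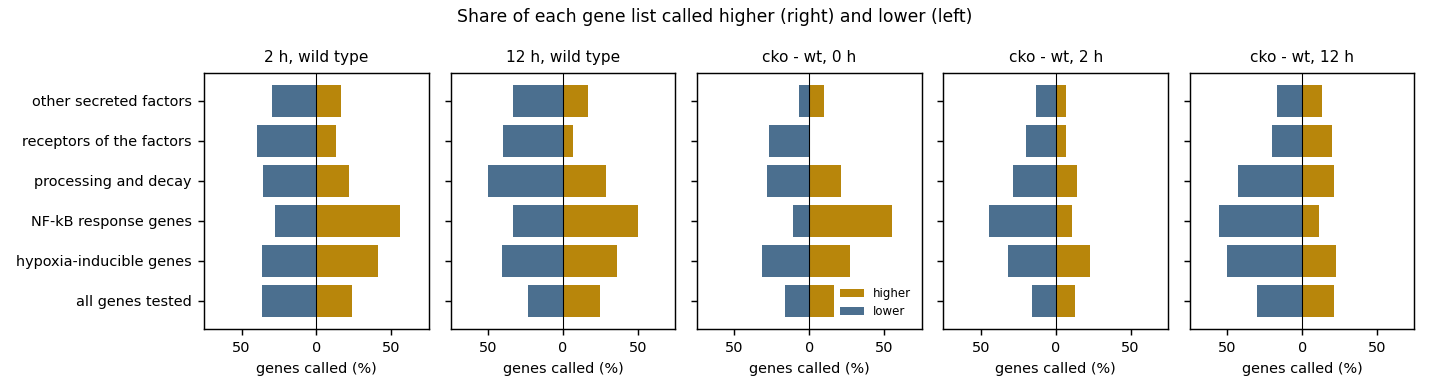
Share of the tested genes of each list called higher (right, ochre) and lower (left, blue) at an adjusted p under 0.05 (x axis, percent), for 5 gene lists and all 12190 genes (y axis), in wild type at 2 h and 12 h against 0 h and between genotypes at 0, 2 and 12 h. In the NF-kB list 10 of 18 genes were higher on cko arrays at 0 h and 10 of 18 lower at 12 h.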

How the data were processed

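RNA from the sorted cells was put on whole-genome mouse arrays after 2 rounds of amplification, per the labels' protocols. The authors deposited a linear signal intensity for every probe set on each array, made with GCOS 1.4 per the submitters' processing notes, and the values show that all arrays share 1 trimmed mean. The sources used here do not give the summarisation algorithm, detection calls or genome build.

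Samples were grouped by their titles. Analysis used log2(signal + 16) without added normalization. Of 45101 probe sets, 64 controls, 9160 without a gene symbol and 932 with several were left out. Probe sets at or under the 40th percentile of the mean (5.14 on the log2 scale, a signal of about 19.2) were left out, which left 21905, and the brightest probe set stood for each of 12190 genes. Symbols were updated through RefSeq (99.4% matched). limma 3.58.1 in R 4.3.3 fitted the 12 arrays with a mean for each group, an intensity trend and 11 two-sided contrasts (residual degrees of freedom 6, prior 7.29). The procedure was tested on simulated data. The number of arrays limits precision.

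The members and the gene lists were chosen with earlier results of these data known. The rule for names takes all 10 members, up to 4 genes of smallest p in each list and contrast, and the 3 genes of highest correlation with each member. For length not every gene that the rule allows is named.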

Additional observations from a re-analysis of the deposited data

Results flagged for a closer look

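The response to anti-IgM differed between the genotypes by the test of the difference itself for 3 of 9 genes at 2 h (20.4% of all genes) and 2 of 9 at 12 h (43.2%), Il6 being left out of these counts. For Adm the cko minus wild-type difference in response was -2.11 ± 0.21 at 2 h and -1.40 ± 0.21 at 12 h on its brighter probe set, and it was not called on the dimmer one at either time. For Ccl3 it was -0.87 ± 0.29 at 2 h and -0.95 ± 0.29 at 12 h, and without replicate 1 of wild type at 0 h these were -0.56 and -0.63 and were not called. For Ltb it was -1.25 ± 0.11 at 2 h. The fitted values for Il6 were -1.84 ± 0.46 at 2 h, between signals near or below the array medians, and 2.33 ± 0.46 at 12 h, where the cko arrays gave 193 and 188. Its probe set passed the filter only through those cko arrays, so both are descriptions and not independent tests. All 7 values use the 0 h arrays of both genotypes. The outlying-sample check was not made, because each group holds 2 arrays.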

How the results depend on the processing

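Of 1845 comparisons of a member's value with its value under another setting, 1703 kept the direction and the side of the threshold or stayed uncalled (43 of them changed sign without a call on either side), 108 lost a call, 31 gained one and 3 reversed. The 3 that reversed were of Il6 with a term for the control-probe division, which assumes 1 time effect for both genotypes. Beside the wild-type values they were -3.35 for 2 h and 2.81 for 12 h against 2 h. Beside the cko value it was -0.53 for 12 h. The term is set by the genotype difference at 12 h, so these values follow from the high cko 12 h arrays of Il6. They do not test the control-probe division.
Requiring a change of at least 2-fold as well left 2, 1 and 1 of the 9 members (4, 3 and 2 without it) and 684, 508 and 2189 genes (3938, 3469 and 6258) between genotypes at 0, 2 and 12 h. It left 1 member (of 2) for the 12 h response difference, and 599 genes (of 2491) for that at 2 h and 2527 (of 5267) for that at 12 h. In wild type it left 3724 genes (of 7277) for 2 h, 2068 (of 5842) for 12 h and 3123 (of 6981) for 12 h against 2 h, and in cko 4274 (of 7684), 3401 (of 7184) and 2048 (of 5968). The mean of probe sets left 1 member called between genotypes at 2 h and 1 for each response difference, with 1594 genes for that at 2 h. The 60th percentile filter gave 1 member between genotypes at 12 h and 5 for each 2 h comparison and for both other wild-type comparisons, and it left 5 of the 10 members to test. With only the groups compared, 4 members were called between genotypes at 12 h and 1 for the 12 h response difference. With the term for the control-probe sets, whose time values are shared by both genotypes, 4708 genes were called for 2 h and 5 members for 12 h against 2 h. Leaving out 1 array gave 1 to 3 members between genotypes at 12 h, 1 to 3 for the 12 h response difference and 2 to 4 for that at 2 h.
Replicate numbers did not pair the arrays: the correlations of their deviations from the group means were -0.0138 to 0.0128. With the replicate number as a block (replicate block), the genes called were 3916, 3456 and 6258 between genotypes at 0, 2 and 12 h, and the block ended 2 calls on members, Vegfa at 12 h in wild type and the 2 h response difference of Ccl3. Array number and dim signals limit the values of Il6, Il10, Lta and Vegfa.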
